A study of Ovis aries with 9 samples.

Results

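The mitochondrial genome of the sheep carries the genes for 3 subunits of cytochrome c oxidase (COX1, COX2 and COX3), cytochrome b (CYTB), 2 subunits of ATP synthase (ATP6 and ATP8) and the small and large mitochondrial ribosomal RNAs (12S and 16S). These 8 genes were taken by name from the 27174 rows of the count table, and all 8 were among the 16871 rows that had enough reads to be tested. The 7 other mitochondrial mRNAs, which encode the ND subunits of complex I, and the nuclear genes of the same complexes were used for comparison.

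RNA-Seq was carried out on the ovaries of 9 ewes. The Dorset group (D4, D5 and D6), of a breed with low fecundity, had 3 ewes labeled as wild type. FecB is a mutation of the BMPR1B gene linked to litter size. The Han ++ group (W6, W7 and W8) had 3 Small Tail Han ewes with the FecB+FecB+ genotype, and the Han BB group (W1, W2 and W4) had 3 Small Tail Han ewes with the FecBBFecBB genotype. All of the ewes were between 2.5 and 3 years old, received fluorogesterone acetate sponges and pregnant mare serum gonadotropin to synchronize estrus, and were killed 24 to 36 h after a later spontaneous estrus. Breed and group cannot be told apart between Dorset and Han, whereas Han BB and Han ++ are of 1 breed. The study removed whole ovaries and then collected samples with regard to ovulation points on the surface. Which part of each ovary was used for RNA is not clearly stated. The RNA came from mixed tissue, so that fewer cells of a type and less RNA per cell cannot be told apart.

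Mitochondrial mRNAs and rRNAs are cut out of long transcripts that cover nearly the whole circular genome, and transfer RNAs lie between many of the genes and mark the places of cutting. COX1 to COX3 form the catalytic core of cytochrome c oxidase, the enzyme that passes electrons to oxygen. CYTB is the subunit of complex III that is encoded in mitochondria, and ATP6 and ATP8 belong to the membrane part of ATP synthase. 12S and 16S are the RNAs of the small and the large subunit of the mitochondrial ribosome. In the ovary, cells that make steroids, such as luteal cells, are rich in mitochondria, where steroid synthesis begins.

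The libraries held between 10803913 (W8) and 20992535 (W7) counted reads. All of the 5 luteal markers, both theca markers, all 6 oocyte markers and 3 of the 5 granulosa markers had rows with reads, whereas CYP19A1 and FOXL2 had no row under these names. D6 and W4 stood apart from the other 7 libraries in mitochondrial ND6, the subunit gene on the other strand of the genome, with 1041 CPM (counts per 1000000 counts of a library, with TMM scaling) in D6, 754 CPM in W4 and 48.3 to 109 CPM elsewhere. A row of unknown function, LOC101101865, took between 0.0107% of the counts in D6 and 14.9% in D4. No pair of libraries agreed within sampling noise. D6 of the Dorset group and W4 of the Han BB group were the pair with the smallest chi-square, 45.8 per degree of freedom, and had a rank correlation of 0.978 over the tested rows, while W4 had 0.931 with W1 and 0.915 with W2 of its own group. These are descriptions over genes, and the counts against Dorset and the values that changed sign are given also without D6 and W4.

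The 8 genes together took 1.55% of the counts in D4, 0.771% in D5 and 1.20% in D6. Their share was 1.83% in W6, 2.09% in W7 and 2.34% in W8 of the Han ++ group, and 1.21% in W1, 1.92% in W2 and 1.79% in W4 of the Han BB group. All of the Han ++ libraries were above all of the Dorset libraries, whereas Han BB overlapped both groups. Exact 95% binomial intervals were 0.767% to 0.775% in D5, the lowest library, and 2.33% to 2.35% in W8, the highest. These intervals cover counting error only, so that the spread between ewes sets the precision. In the 9 libraries, 12S and 16S made up between 10.95% (W7) and 32.3% (W8) of the reads of the 8 genes.

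The 8 genes differed in level per length. COX1 had the highest median, 4533 CPM per kb over the 9 libraries, and was the row with the most reads in W7 and the second in 5 other libraries. In D5 it was 17th by read count. COX2 had a median of 71.2% of the COX1 level per kb of the same library, ATP6 86.2%, 16S 46.0%, ATP8 36.2% and CYTB 31.2%. Between COX1, ATP6 and COX2 the order was not the same in every library, since ATP6 lay between 61.1% and 106% of COX1 per kb and COX2 between 59.4% and 87.6%. The ranges of 16S (22.97% to 78.7%), ATP8 (17.0% to 48.5%) and CYTB (22.4% to 34.6%) overlapped as well. 12S had a median of 5.97% of COX1 per kb, with a range from 0.791% to 42.6%.

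**Figure D1:**
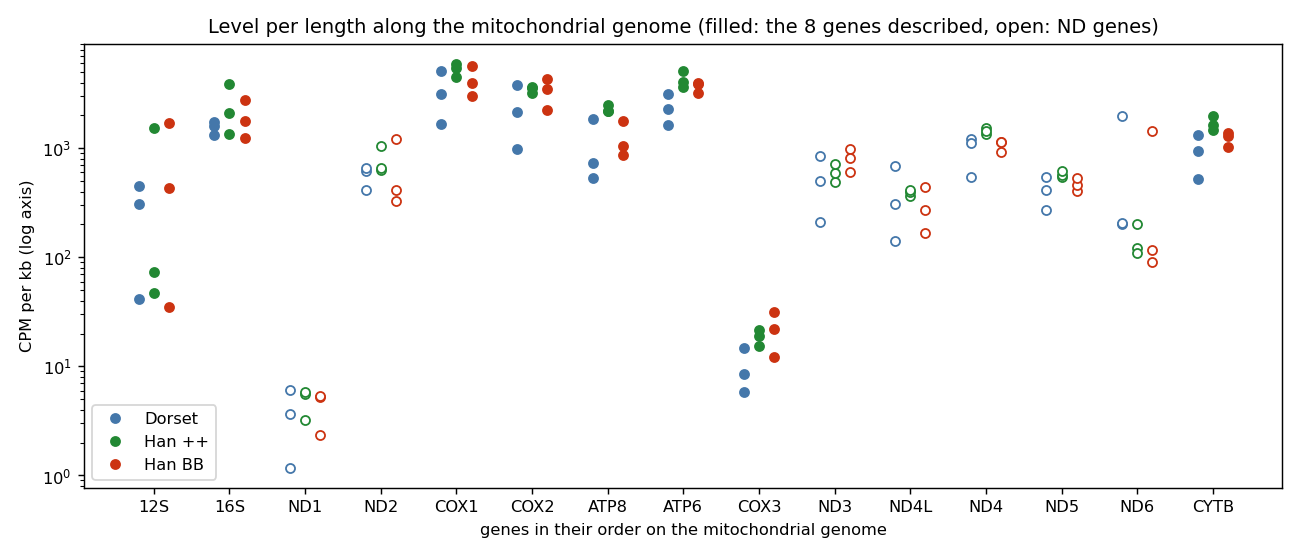
Level per length (CPM per kb, log axis) of the 15 mitochondrial mRNA and rRNA genes in their order on the genome, with 1 point for each library, colored by group; filled points are the 8 genes described and open points the ND genes. COX3 and ND1 sit far below their neighbors in all 9 libraries, and 12S spreads from 34.8 to 1698 CPM per kb.

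COX3, the third core subunit of cytochrome c oxidase, was far below the other 5 mRNAs in every library. It had 102 to 366 reads per library, while COX1 had 57049 to 201572. Its level per kb was 0.347% of COX1 at the median, with a range from 0.260% to 0.735%. Against ATP6, which is annotated 1 base away from COX3, the level per kb of COX3 was between 0.302% (W7) and 0.817% (W2). Against ND3, the next mRNA downstream, it was between 1.501% (W4) and 4.34% (W6). Of the 15 genes, ND1 alone was lower, with 25 to 118 reads and a median of 0.0947% of COX1 per kb. Only uniquely mapped reads were counted, and how many reads of COX3 matched a second place in the genome was not tested.

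The values of the 6 mRNAs were as follows. COX1 had 7942 CPM in D4, 2572 in D5 and 4870 in D6. In the Han ++ group it had 7003 CPM in W6, 9118 in W7 and 8430 in W8, and in the Han BB group 4657 CPM in W1, 8856 in W2 and 6156 in W4. The groups overlapped, because D4 was above W6, W1 and W4. COX2 had 2603, 677 and 1462 CPM in D4, D5 and D6. It had 2208, 2422 and 2487 CPM in W6, W7 and W8, and 1537, 2970 and 2388 CPM in W1, W2 and W4. COX2 varied among the Han ++ ewes by an SD of 146 CPM and among the Dorset ewes by 969 CPM (n = 3 each).

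COX3 had 11.6, 4.60 and 6.70 CPM in D4, D5 and D6. It had 16.8, 12.03 and 14.8 CPM in W6, W7 and W8, and 17.4, 24.7 and 9.50 CPM in W1, W2 and W4. All Han ++ libraries were above all Dorset libraries, although W7 exceeded D4 only narrowly, and W4 was below D4. CYTB had 1507, 592 and 1075 CPM in D4, D5 and D6. It had 1689, 2256 and 1846 CPM in W6, W7 and W8, and 1158, 1464 and 1574 CPM in W1, W2 and W4. In CYTB every Han ++ library was above every Dorset library, which held for 5.47% of all tested rows. Every Han ++ library was also above every Han BB library (4.59%). The share of rows where both held was not counted.

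ATP6 had 2133, 1118 and 1548 CPM in D4, D5 and D6. It had 2749, 3456 and 2457 CPM in W6, W7 and W8, and 2168, 2613 and 2702 CPM in W1, W2 and W4. Thus ATP6 was higher in 6 of 6 Han ewes than in every Dorset ewe, which held for 1.83% of all tested rows. W1 was next to D4. ATP8 had 374, 148 and 108 CPM in D4, D5 and D6. It had 442, 441 and 502 CPM in W6, W7 and W8, and 211, 355 and 174 CPM in W1, W2 and W4. As in CYTB, every Han ++ library was above every Dorset library (5.47% of all tested rows) and every Han BB library (4.59%) in ATP8.

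**Figure D2:**
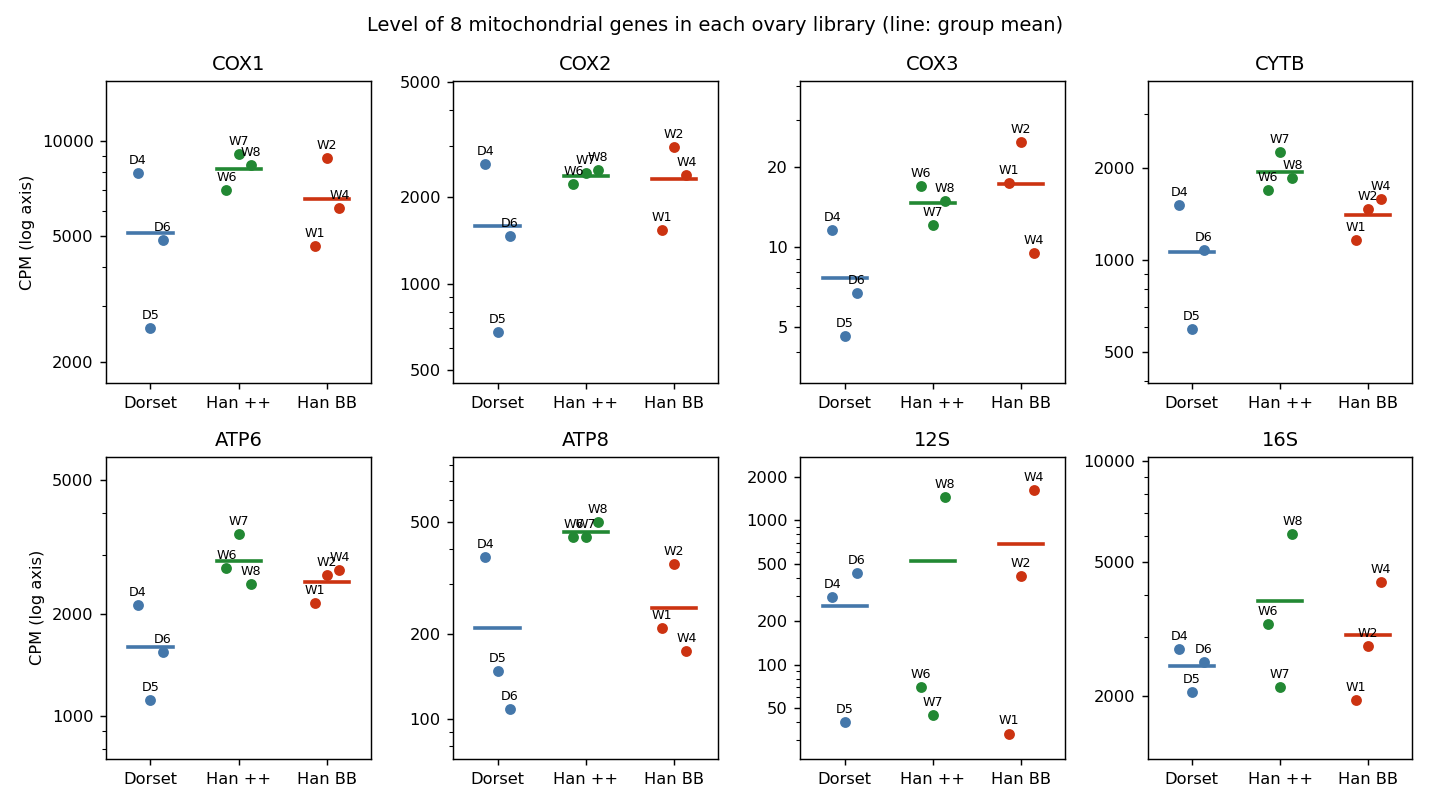
Level of each of the 8 genes (CPM, log axis) by group, with 1 labeled point for each ewe and a line at the group mean. D5 is the lowest point for COX1, COX2, COX3, CYTB and ATP6, and 12S has high and low libraries in all 3 groups.

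The comparisons ask whether ovaries of ewes that differ in breed and FecB genotype differ in these RNAs. A gene was called when its adjusted p in edgeR's quasi-likelihood test was under 0.05 and its fold change above 1.5 or below its reciprocal. The test for any difference among the 3 groups used the adjusted p alone, with no fold threshold. None of the 8 genes was called in Han BB against Dorset, where 0 (0%) of all tested rows were called. None was called in Han ++ against Dorset, where 1 row of 16871 (0.00593%) was called, in Han BB against Han ++ (0% of rows), in both Han groups against Dorset (0%) or in the test for any difference among the 3 groups (0%). DESeq2 and limma voom also called 0 of the 8 genes in each comparison. Over all rows, DESeq2 called 38 (0.154%) in Han BB against Dorset, 65 (0.263%) in Han ++ against Dorset, 2 (0.00810%) in Han BB against Han ++, 88 (0.356%) in both Han groups against Dorset and 58 (0.235%) among the 3 groups. Limma voom called 2 rows (0.0119%) in Han BB against Han ++ and 0 (0%) in the other 4 comparisons.

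In Han ++ against Dorset, the log2 fold changes of the 8 genes were all above 0. ATP8 had the largest, 1.14 ± 0.46 (SE), with means of 462 ± 34.5 CPM in Han ++ ewes and 210 ± 144 in Dorset ewes (SD, n = 3 each), an unadjusted p of 0.0312 and an adjusted p of 0.891 (edgeR). COX3 was higher by 0.94 ± 0.43 (SE; adjusted p = 0.943), CYTB by 0.87 ± 0.37 (adjusted p = 0.912) and ATP6 by 0.85 ± 0.33 (adjusted p = 0.891). The values of COX1 (0.67 ± 0.43), COX2 (0.59 ± 0.46) and 16S (0.64 ± 0.44) were smaller in relation to their errors. 12S had a log2 fold change of 1.03 ± 1.40. With unadjusted p under 0.05, 4 of the 8 genes (ATP8, ATP6, CYTB and COX3) were higher in Han ++, against 2.61% of all tested rows. The same 4 genes had every Han ++ library above every Dorset library, against 5.47% of all tested rows. Genes of 1 long transcript are not independent of each other, so that these are not 4 separate observations. DESeq2 gave 4 genes that were higher at an unadjusted p under 0.05, against 2.38% of its rows, and limma voom gave 6, against 4.98%. The median log2 fold change was 0.86 over the 8 genes, 0.45 over the 7 ND genes and -0.06 over all tested rows.

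In Han BB against Dorset, the log2 fold changes of all 8 genes were again above 0, with a median of 0.47 (0.18 over the ND genes and -0.01 over all tested rows). COX3 was higher by 1.18 ± 0.43, with 17.2 ± 7.58 CPM in Han BB ewes and 7.63 ± 3.58 in Dorset ewes (SD, n = 3 each; unadjusted p = 0.0185, adjusted p = 0.975 in edgeR). It was the only one of the 8 genes with an unadjusted p under 0.05, against 2.10% of all tested rows that were higher in Han BB. ATP6 was the only one with every Han BB library above every Dorset library, against 4.27% of all tested rows, and had a log2 fold change of 0.64 ± 0.33. The other 4 mRNAs lay between 0.23 ± 0.45 (ATP8) and 0.54 ± 0.46 (COX2), and 16S was at 0.31 ± 0.43. DESeq2 (1.90% of its rows) and limma voom (5.92%) gave 2 genes each that were higher at an unadjusted p under 0.05, COX3 and ATP6. With both Han groups against Dorset, 2 of the 8 genes had an unadjusted p under 0.05, against 2.63% of all tested rows. DESeq2 gave 3 such genes (2.67% of its rows) and limma voom 6 (5.41%). In edgeR these were COX3 at 1.06 ± 0.38 (adjusted p = 0.660) and ATP6 at 0.75 ± 0.29 (adjusted p = 0.734). ATP6 was also the only one with all 6 Han libraries above all 3 Dorset libraries, which held for 1.83% of all tested rows. These comparisons share the Dorset ewes, so that their directions are not independent.

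In Han BB against Han ++, which differ in FecB genotype within 1 breed, 2 of the 8 genes (COX3 and 12S) had a log2 fold change above 0. ATP8 was lower by the most, with a log2 fold change of -0.91 ± 0.46 and means of 246 ± 95.8 CPM in Han BB ewes and 462 ± 34.5 in Han ++ ewes (SD, n = 3 each; unadjusted p = 0.0735, adjusted p = 0.999 in edgeR). CYTB had a log2 fold change of -0.46 ± 0.37, and the remaining mRNAs lay between -0.32 ± 0.43 (COX1) and 0.24 ± 0.42 (COX3). In ATP8 and CYTB every Han BB library was below every Han ++ library, against 4.59% of all tested rows. None of the 8 genes had an unadjusted p under 0.05 in edgeR, where 1.97% of all tested rows did in either direction; DESeq2 (1.42% of its rows lower) and limma voom (3.54%) gave 1 lower gene each. The median log2 fold change was -0.27 over the 8 genes, -0.26 over the ND genes and 0.04 over all tested rows, and 2 ND genes (ND4 and ND5) also had every Han BB library below every Han ++ library. In the test for any difference among the 3 groups, COX3 alone had an unadjusted p under 0.05 (0.0488), against 3.94% of all tested rows.

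**Figure D3:**
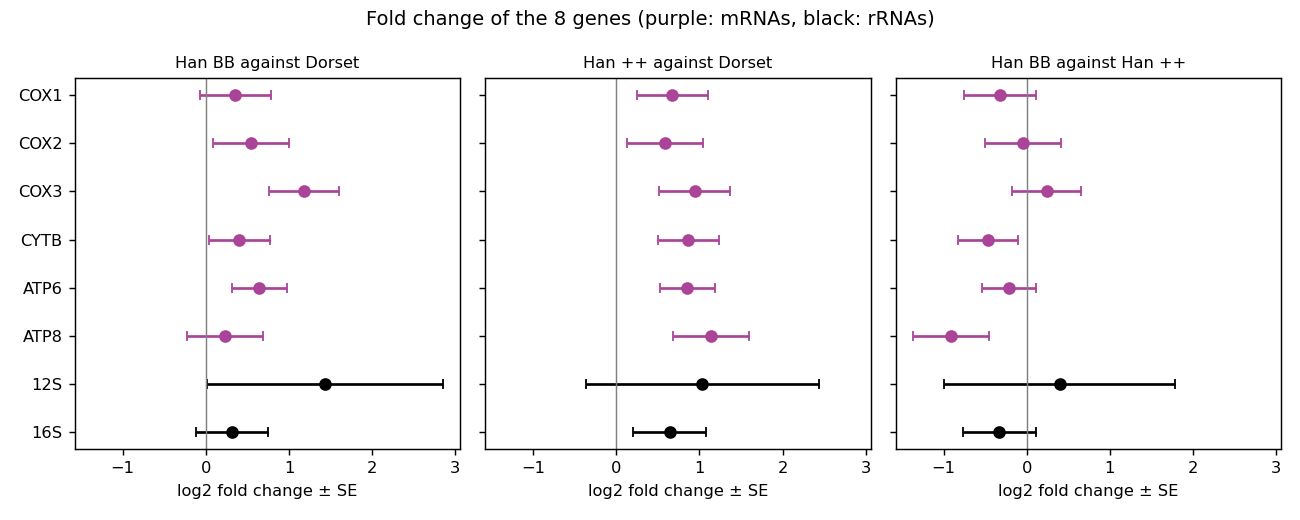
Log2 fold change ± SE of the 8 genes in the 3 pairwise comparisons, with mRNAs in purple and rRNAs in black. All points lie above 0 in both comparisons with Dorset, and the bars of 12S are more than 3 times as long as those of the other genes.

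The differences from Dorset depended on which ewes were included. D5 was the lowest of the 9 libraries for 5 of the 8 genes (COX1, COX2, COX3, CYTB and ATP6) and for 5 of the 7 ND genes. Without D5, none of the 8 genes had an unadjusted p under 0.05 in edgeR in Han ++, Han BB or both Han groups against Dorset, while 2.19% of all tested rows were higher in Han ++ and 1.24% in Han BB at that p. The median log2 fold change of the 8 genes was then 0.55 in Han ++ and 0.21 in Han BB, and all 8 stayed above 0 in both. The log2 fold change of COX1 against Dorset was then 0.36 in Han ++ and 0.05 in Han BB. Without D4, the Dorset ewe with the highest level of each of the 6 mRNAs and the second lowest total count of the 9 libraries, the number with an unadjusted p under 0.05 was 6 in Han ++ (4.59% of all tested rows) and 4 in Han BB (4.03%). The log2 fold change of COX1 was then 1.13 in Han ++ and 0.81 in Han BB. Without D6, it was 0 genes in Han ++ (3.05% of all tested rows) and 1 in Han BB (4.40%), and ATP8 in Han BB changed sign to -0.066, as it did without W2 (-0.11). With D6 and W4 both left out, 3 genes had an unadjusted p under 0.05 in Han ++ (4.56% of all tested rows) and 1 in Han BB (3.22%). Of the Han ++ ewes, leaving out W6 gave 1 such gene and leaving out W7 or W8 gave 2 each, against 1.53% to 1.98% of all tested rows, and leaving out W2 gave 0 in Han BB (2.13%).

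Markers of other cell types also differed between the Dorset ewes. The summed level of the 5 luteal markers was 934 CPM in D4, 269 in D5 and 455 in D6, where D5 was the lowest of all 9 libraries. It was 577 to 926 CPM in Han ++ and 348 to 968 CPM in Han BB. Of the 5 markers, STAR alone, which brings cholesterol into mitochondria, was lowest in D5, with 19.7 CPM against 47.4 to 213 CPM in the other 8 libraries. CYP11A1, the enzyme that starts steroid synthesis inside mitochondria, had 125 CPM in D5 and was lower in W1 (111 CPM) and W4 (73.6 CPM), and HSD3B1, a later enzyme, had 29.4 CPM in D5 and was lower in D6, W6, W8 and W4. The summed level of the 4 immune markers was 129 CPM in D5 and 186 to 342 CPM in the other 8 libraries. Of these markers, CD68 alone was lowest in D5 (26.9 CPM), while CSF1R was highest there (42.9 CPM) and PTPRC and CD3E were lower in D4 than in D5. The 5 smooth muscle markers had 9217 CPM in D5, second to D6 with 9404. The part of cell makeup in the levels of the 8 genes was not tested.

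**Figure D4:**
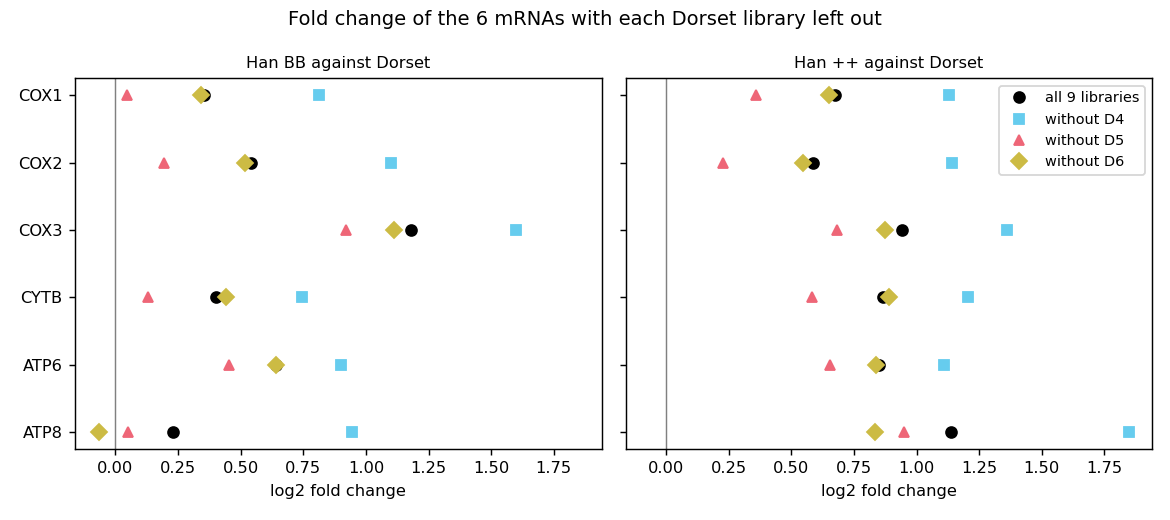
Log2 fold change of the 6 mRNAs against Dorset in the fit of all 9 libraries and with each Dorset library left out in turn. Leaving out D5 moves all 6 genes toward 0 and leaving out D4 moves all 6 away from it in both comparisons.

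The mRNAs of the same genome moved together over the 9 libraries to different extents. The SD of the difference in log2 CPM from COX1 was 0.18 for COX2, the smallest of all tested rows, and 0.21 for CYTB, the second smallest. It was 0.30 for ATP6, 0.51 for both ATP8 and COX3, 0.60 for 16S and 2.05 for 12S. Reads of COX2 per 100 reads of COX1 ranged from 26.3 in D5 to 38.8 in W4. Outside the mitochondrial genome, NUAK2 (0.21), LOC101116029 (0.22) and TMEM71 (0.22) were nearest to COX1, all at low levels of 0.316 to 3.68 CPM. For 16S the nearest rows were FBXW10 (0.25), IL1R1 (0.27) and ADAM19 (0.27), and none of the 14 other mitochondrial genes was as near. Over 9 libraries and all the other tested rows some rows are near by their number alone, and these values are a description.

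The 2 ribosomal RNAs behaved differently from each other. 16S had 2760, 2062 and 2529 CPM in D4, D5 and D6, 3280, 2133 and 6065 CPM in W6, W7 and W8, and 1951, 2823 and 4364 CPM in W1, W2 and W4, a 3.11-fold range. 12S had 294, 39.8 and 434 CPM in D4, D5 and D6. It had 70.3, 44.7 and 1457 CPM in W6, W7 and W8, and 33.4, 412 and 1627 CPM in W1, W2 and W4. This is a 48.8-fold range, and the SD of log2 CPM over the 9 libraries (2.21) was larger than that of 96.8% of all tested rows. The 12S counts were 703 to 24322 reads, so that counting error is small beside this spread. Each group had libraries with much and with little 12S. D5, W6, W7 and W1 were between 33.4 and 70.3 CPM, and the other 5 libraries were between 294 and 1627 CPM, with none in between.

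The same libraries were set apart by the ratio of 16S to 12S, which does not depend on the scaling between libraries. It was 9.39-fold in D4, 51.8 in D5 and 5.82 in D6, 46.6 in W6, 47.7 in W7 and 4.16 in W8, and 58.4 in W1, 6.85 in W2 and 2.68 in W4. The 4 libraries with little 12S were also the 4 with the most reads, with totals from 19965237 (W6) to 20992535 (W7), while the other 5 had at most 17990657 (D6). The labels give no batch, and the part of library preparation or sequencing in the level of 12S was not tested. The log2 ratio of 16S to 12S was 3.82 ± 1.66 in Dorset, 4.39 ± 2.02 in Han ++ and 3.36 ± 2.28 in Han BB (SD, n = 3 each). Its differences between groups were within this spread, with exact permutation p-values (two-sided) of 0.8 in Han BB against Dorset, 1 in Han ++ against Dorset, 0.7 in Han BB against Han ++ and 0.952 in both Han groups against Dorset. All were 1 after adjustment over 8 ratio tests. With 3 against 3 ewes the smallest p this test can give is 0.1, and with 6 against 3 it is 0.0238.

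The fold changes of the rRNAs turned on single libraries. The log2 fold change of 12S was 1.43 ± 1.42 in Han BB against Dorset, and -0.22 without W4. In Han ++ against Dorset it was -2.12 without W8, in place of 1.03. In Han BB against Han ++ it was 3.58 without W8 and -1.22 without W4, in place of 0.40 ± 1.39. Without W8, 12S had an unadjusted p under 0.05 in edgeR, against 0.250% of all tested rows that were higher. Its adjusted p in edgeR was 0.9998. For 16S, Han BB against Dorset gave -0.06 without W4, in place of 0.31, and Han BB against Han ++ gave 0.16 without W8, in place of -0.33.

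**Figure D5:**
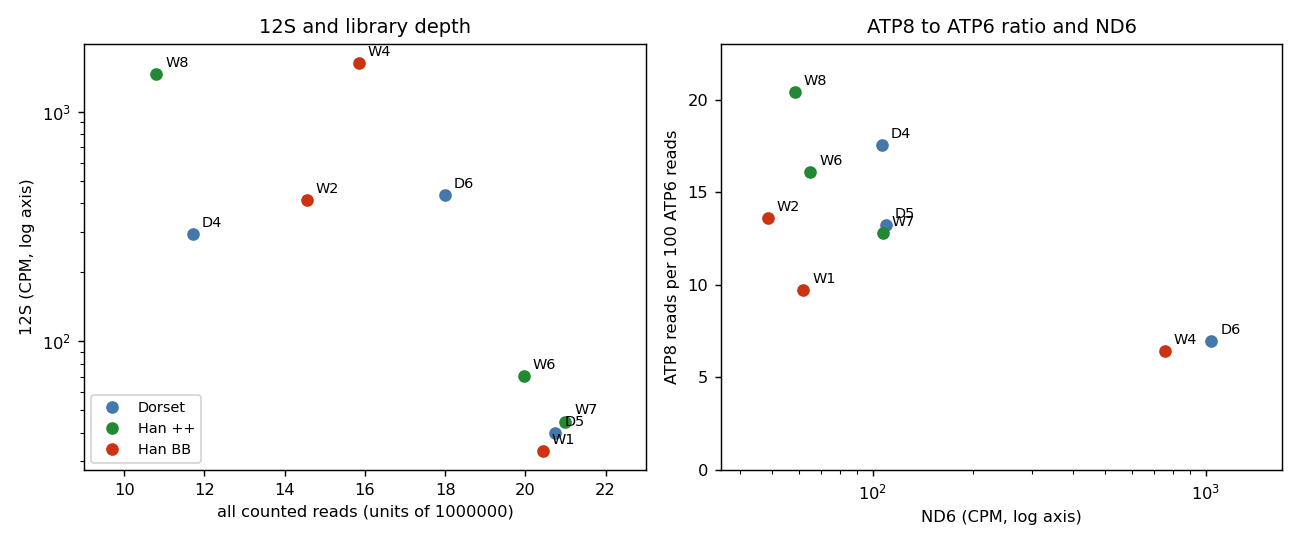
Left, 12S (CPM, log axis) against all counted reads of each library, in units of 1000000 reads; right, reads of ATP8 per 100 reads of ATP6 against ND6 (CPM, log axis), with points colored by group. The 4 libraries with the most reads have the lowest 12S, and D6 and W4 have the highest ND6 and the lowest ATP8 ratio.

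ATP8 and ATP6 overlap by 40 bases and are carried on 1 mRNA. There were 17.6 reads of ATP8 per 100 reads of ATP6 in D4, 13.2 in D5 and 6.97 in D6. There were 16.1, 12.8 and 20.4 in W6, W7 and W8, and 9.71, 13.6 and 6.44 in W1, W2 and W4. Per kb, ATP8 was between 21.7% (W4) and 69.0% (W8) of ATP6. D6 and W4 had the lowest ratios, and these were the libraries with the most ND6. ATP8 is short, with a length of 201 bases, and how reads in the overlap were assigned is not given in the sources used here. The log2 ratio of ATP8 to ATP6 was -3.09 ± 0.68 in Dorset, -2.63 ± 0.34 in Han ++ and -3.40 ± 0.54 in Han BB (SD, n = 3 each). The exact permutation p-values (two-sided) were 0.6 in Han BB against Dorset, 0.5 in Han ++ against Dorset, 0.2 in Han BB against Han ++ and 0.857 in both Han groups against Dorset, and all were 1 after adjustment.

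The nuclear genes of the same complexes were counted in the same way, and 0 genes of any list were called in any comparison in edgeR. With an unadjusted p under 0.05 there was 1 gene of ATP synthase, lower in Han ++ than in Dorset (2.66% of all tested rows). There was also 1 of cytochrome c oxidase, lower in both Han groups together than in Dorset (3.50%). Of 36 nuclear subunits and assembly factors of cytochrome c oxidase, only 6 had a row under the names used, and all 6 were tested. Of these, 1 had a log2 fold change above 0 in Han BB against Dorset and 2 in Han ++ against Dorset, with medians of -0.10 and -0.18. SURF1, an assembly factor of cytochrome c oxidase, had 19.4 ± 7.04 CPM in Han BB ewes and 33.5 ± 14.1 in Dorset ewes (SD, n = 3 each), a log2 fold change of -0.78 ± 0.36 (adjusted p = 0.975 in edgeR). The log2 fold change of SURF1 was -0.39 without D4 and -1.02 without W1. NDUFA4, a subunit of the same enzyme, had 81.2 ± 26.3 CPM in Han ++ ewes and 42.3 ± 33.0 in Dorset ewes, a log2 fold change of 0.94 ± 0.64, which was 1.79 without D4 and 0.64 without D6. Thus this list and the 3 COX mRNAs of the mitochondrial genome had medians of opposite sign against Dorset, and none of these differences passed the test.

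For complex III, 3 of 15 nuclear genes had a row and were tested, and 2 of 3 had a log2 fold change above 0 in each pairwise comparison. LYRM7, an assembly factor of complex III, had 4.59 ± 0.89 CPM in Han BB ewes and 2.01 ± 1.15 in Dorset ewes (log2 fold change of 1.17 ± 0.59). TTC19, another factor of complex III, had 23.7 ± 1.26 CPM in Han BB ewes and 21.2 ± 2.31 in Han ++ ewes (0.16 ± 0.24). For ATP synthase, 18 of 41 names had a row and were tested, where the names include older and newer ones of the same genes. Of these 18, 14 had a log2 fold change above 0 in Han BB against Dorset. The number was 8 in Han ++ against Dorset and 12 in Han BB against Han ++. The medians were 0.09, -0.02 and 0.27. TMEM70, which helps to assemble ATP synthase, had 23.2 ± 1.80 CPM in Han ++ ewes and 34.7 ± 7.25 in Dorset ewes (-0.58 ± 0.25, unadjusted p = 0.0389, adjusted p = 0.914 in edgeR). ATP5O, a stalk subunit, had 156 ± 39.7 CPM in Han BB ewes and 108 ± 53.8 in Dorset ewes (0.53 ± 0.35). Its log2 fold change was 1.03 without D6 and 0.28 without W4.

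Genes that make or handle mitochondrial RNA were not called either. Their lists also hold older and newer names of some genes. Of 17 tested genes of mitochondrial transcription and DNA maintenance (25 names), 7 had a log2 fold change above 0 in Han BB against Dorset, 4 in Han ++ against Dorset and 9 in Han BB against Han ++, with medians of -0.11, -0.13 and 0.09. MTERF, a transcription termination factor, had 8.66 ± 2.37 CPM in Han BB ewes and 4.59 ± 3.14 in Dorset ewes (0.91 ± 0.50, with 1.65 without D6 and 0.64 without D4), and MTERFD2, of the same family, had 33.9 ± 0.54 CPM in Han ++ ewes and 45.1 ± 10.04 in Dorset ewes (-0.41 ± 0.25). Of 30 tested genes of mitochondrial RNA processing, stability and rRNA modification (37 names), 21 were above 0 in Han BB against Dorset, 15 in Han ++ against Dorset and 23 in Han BB against Han ++, with medians of 0.26, 0.003 and 0.12. TRMT10C, a subunit of the enzyme that cuts transcripts at the starts of transfer RNAs, had 55.0 ± 30.8 CPM in Han BB ewes and 32.3 ± 7.13 in Han ++ ewes (0.76 ± 0.44, with 0.19 without W4 and 1.01 without W1), and NGRN, which is needed for the stability of 16S, had 67.0 ± 5.62 CPM in Han BB ewes and 47.7 ± 6.63 in Han ++ ewes (0.49 ± 0.27). Over all tested rows, 49.4%, 44.1% and 53.4% were above 0 in the same comparisons.

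Of the 7 ND genes, 5 had a log2 fold change above 0 in Han BB against Dorset, 6 in Han ++ against Dorset and 2 in Han BB against Han ++. ND4 had 1992 ± 128 CPM in Han ++ ewes and 1315 ± 491 in Dorset ewes (0.60 ± 0.34). ND6 had 76.8 ± 26.5 CPM in Han ++ ewes and 419 ± 538 in Dorset ewes (-2.45 ± 1.13), a difference set by D6, since without D6 the log2 fold change was -0.49.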

How the data were processed

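RNA-Seq counts per gene were analysed for ovaries of 9 ewes in 3 groups, taken from the labels. The authors aligned reads to Oar_v3.1 with TopHat and deposited raw counts of uniquely mapped reads, without normalization; how reads were assigned to genes, and by strand, is not given in the sources used here. The study describes stranded libraries of total RNA depleted of ribosomal RNA, whereas the labels name a different Illumina kit, a choice that bears on 12S and 16S.

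Counts were tested with edgeR 4.0.16 (quasi-likelihood F-test, TMM, expression filter by group, 1 fit of all libraries) in R 4.3.3, with Benjamini-Hochberg adjustment over 16871 rows. The SE of a log2 fold change in edgeR was worked back from the test, as its absolute value divided by the square root of F. Alternatives used DESeq2 1.42.0 and limma 3.58.1. Scripts were tested on simulated data. CPM per kb used gene lengths of a RefSeq table of a newer assembly, in which 15 of 15 mitochondrial positions listed with the study matched. These positions are not those of the 15 mRNA and rRNA genes. The study listed none for COX1, COX2, COX3, ATP6, ND1, ND2, ND4, ND5 and ND6. The lengths of these genes, and the places of ATP6 and COX3 relative to their neighbors, rest on the newer assembly alone. Ratios had 0.5 reads added to each count. Each sample was a separate ewe. Named genes were all 8 members in every library, the 2 genes of each other list with the smallest unadjusted p in a pairwise comparison, and the 3 nearest rows to COX1 and 16S outside the mitochondrial genome. The members, lists and tests were chosen with earlier results of these data known. None of 18 names of other non-polyadenylated RNAs had a row. Figures were drawn with matplotlib.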

Additional observations from a re-analysis of the deposited data

How the results depend on the processing

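The count of called members was 0 under every alternative run (DESeq2 size factors, library totals, scaling from nuclear rows, DESeq2, limma voom, no filter, fits of 2 groups, leaving out each ewe, leaving out D6 and W4, and, chosen after seeing the data, edgeR's newer dispersion step and totals without LOC101101865). Of the 24 pairwise fold changes of the 8 genes, 16 kept their sign throughout, and 14 of 456 alternative values changed sign. Of the scalings, totals without LOC101101865 moved the median log2 fold change of all tested rows the most. In Han BB against Han ++ it went from 0.035 to -0.067. No paired analysis was possible because the numbers in the labels name different ewes.

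With limma voom, 12S in Han BB against Han ++ was at -0.28. Without D6 and W4, 16S in Han BB against Dorset was at -0.018, 12S in Han BB against Han ++ at -1.22, the log2 ratio of 16S to 12S differed by -0.071 in Han ++ and by -0.10 in both Han groups from Dorset, and that of ATP8 to ATP6 by -0.11 in both Han groups. Leaving out 1 ewe at a time, the log2 fold changes against Dorset in Han BB ranged from -0.11 to 0.94 for ATP8, -0.22 to 2.11 for 12S and -0.056 to 0.57 for 16S, and in Han ++ from -2.12 to 1.65 for 12S. In Han BB against Han ++ they ranged from -0.26 to 0.17 for COX2, -0.11 to 0.52 for COX3, -1.22 to 3.58 for 12S and -0.68 to 0.16 for 16S. The difference in the log2 ratio of 16S to 12S from Dorset ranged from -1.72 to 0.50 in Han BB, -0.071 to 1.74 in Han ++ and -0.59 to 0.99 in both Han groups, and that of ATP8 to ATP6 in both Han groups from -0.30 to 0.36. Beyond the ewes left out, the cause was not tested. With 3 ewes a group, the spread between ewes limits these comparisons, also for COX3, the one of the 8 genes with the fewest reads (102 to 366 per library), whose coefficient of variation was 16.6% to 47.0% within groups.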

Other observations

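Of the 22 mitochondrial transfer RNA rows, 5 had enough reads to be tested. The transfer RNA for threonine, which lies next to CYTB, held most of their reads, with 981, 825 and 3601 reads in D4, D5 and D6, 334, 1255 and 233 reads in W6, W7 and W8, and 196, 142 and 2520 reads in W1, W2 and W4. D6 and W4, the libraries with the most ND6 and the fewest ATP8 reads per ATP6 read, were also the highest in this row, at 201 and 169 CPM against 9.30 to 95.5 CPM elsewhere.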
